A study of Mus musculus with 3 samples.

Results

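Expression of 9 genes tied to glucocorticoid hormone was followed in mouse thymocytes of 3 genotypes. Thymocytes are T cells in development. The genes were the glucocorticoid receptor gene Nr3c1, the hormone-activating enzyme gene Hsd11b1, and Tsc22d3, Fkbp5, Per1, Sgk1, Sgk3, Klf13 and Zbtb10. They were taken as a list by name, chosen with earlier results of these data known. Each matched 1 of the 21789 probe sets that carry a single gene symbol, so all 9 were measured, of 19938 genes in all. The groups were thymocytes without TCF-1, called TCF-1-/- (TCF-1-deficient, 8 weeks old), β-catenin transgenic thymocytes (16 weeks old) and wild type thymocytes (WT, 12 weeks old), with 1 Affymetrix whole-transcript array each. What drives the transgene, the mouse strain and any pooling of mice are not stated in the labels. Genotype and age cannot be told apart, and with no replicate none of the values below has an error or a test. Levels are the deposited values, taken as log2, and the words higher and lower, as calls, need a difference of 1 or more on that scale, which is 2-fold.

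Glucocorticoids are steroid hormones of the adrenal cortex. They bind a receptor held ready in the cytoplasm by heat-shock protein chaperones, and the bound receptor enters the nucleus, binds DNA and switches genes on or off. Immature thymocytes, above all those at the CD4+CD8+ double-positive stage, die when exposed to high levels of the hormone, which is why stress shrinks the thymus. The thymus itself has been reported to make some hormone, and tissues can raise the hormone locally, because the enzyme encoded by Hsd11b1 turns the inactive 11-keto form back into the active one.

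The gene lists and tissue markers set the frame for these values. Of 6 measured pan-thymocyte genes, all were bright, with a median level of 12.16 on the TCF-1-/- array and 12.02 on the transgenic array, against 12.16 on the wild type array. Ctnnb1, which encodes β-catenin, was at 11.16, 11.39 and 11.15 in the same order, and the disrupted gene was not analysed here. Xist, the RNA that coats the inactive X chromosome, was at 12.17 on the TCF-1-/- array and at 4.86 with the transgene, against 12.49 in wild type, so the transgenic array stood apart in sex-linked transcripts, and for it genotype, age and sex cannot be told apart. Of all genes, 33.6% had the same deposited value on all 3 arrays to the last digit, and this share was 51.3% among the dimmer genes and 16.0% among the brighter ones. Identical values are thus no evidence of equal RNA to that precision.

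The receptor's DNA motif and the promoters of 4 of the genes are shown first, because the list was built around a DNA-binding receptor and because Hsd11b1 and Klf13 differed in the same directions on these arrays while Fkbp5 differed in the opposite ones. The windows are from RefSeq (GRCm38.p6), 5′ to 3′ on the strand of the gene, from 250 bases before to 50 bases after an annotated start. Of the 9 genes, 6 had at least 1 window, 14 windows in all, and Nr3c1, Sgk3 and Zbtb10 are named only. Capitals mark, on either strand, the receptor hexamer AGAACA, the TCF site CTTTGAT and the GC box GGGCGG, which do not overlap in these windows. The windows lie at chr1:193242311-193242610 (minus strand) for Hsd11b1, chr17:28486100-28486399 (minus strand) for Fkbp5, chr10:21993640-21993939 (plus strand) for Sgk1 and chr7:63938866-63939165 (minus strand) for Klf13.
Hsd11b1: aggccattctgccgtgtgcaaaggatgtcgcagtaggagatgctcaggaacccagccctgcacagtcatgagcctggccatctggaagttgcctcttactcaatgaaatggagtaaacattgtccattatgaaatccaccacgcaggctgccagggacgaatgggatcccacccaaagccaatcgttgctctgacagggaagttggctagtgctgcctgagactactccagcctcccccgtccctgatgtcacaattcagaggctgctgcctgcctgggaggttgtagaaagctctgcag
Fkbp5: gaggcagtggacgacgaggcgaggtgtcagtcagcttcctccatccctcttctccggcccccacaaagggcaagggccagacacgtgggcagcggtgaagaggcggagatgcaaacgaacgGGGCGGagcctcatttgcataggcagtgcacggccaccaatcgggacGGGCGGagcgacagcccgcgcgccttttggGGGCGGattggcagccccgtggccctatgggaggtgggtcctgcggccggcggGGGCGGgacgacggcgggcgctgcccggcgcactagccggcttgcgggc
Sgk1: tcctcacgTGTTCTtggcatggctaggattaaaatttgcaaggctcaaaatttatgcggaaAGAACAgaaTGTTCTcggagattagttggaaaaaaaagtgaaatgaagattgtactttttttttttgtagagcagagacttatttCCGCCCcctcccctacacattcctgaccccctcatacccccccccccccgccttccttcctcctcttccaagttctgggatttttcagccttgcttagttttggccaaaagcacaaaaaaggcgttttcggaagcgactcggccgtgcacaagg
Klf13: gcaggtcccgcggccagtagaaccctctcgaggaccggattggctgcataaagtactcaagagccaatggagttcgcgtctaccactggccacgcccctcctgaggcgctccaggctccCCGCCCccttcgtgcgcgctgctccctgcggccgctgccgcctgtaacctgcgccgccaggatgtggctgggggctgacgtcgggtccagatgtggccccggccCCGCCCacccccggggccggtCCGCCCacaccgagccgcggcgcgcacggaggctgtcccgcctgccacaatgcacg

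In the Sgk1 window, 2 hexamers in opposite orientation and 3 bases apart form the full palindrome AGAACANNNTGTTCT, here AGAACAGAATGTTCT at chr10:21993701-21993715. This palindrome occurred in 3 of 32851 promoter windows of this length (0.00913%), and of the 6 genes with a window Sgk1 was the 1 to have it. Its centre lies 182 bases before the start of that window's transcript and 958 bases before the most downstream annotated start of Sgk1. The single hexamer was less rare: it was in 4 of the 14 windows of these genes (3 of Sgk1 and 1 of Tsc22d3) and in 19.0% of all windows. The TCF site was in 1 window, another of Sgk1, and in 3.73% of all windows. Neither motif was found in the windows of Hsd11b1, Fkbp5 and Klf13, which says only that these letters are not there. The GC box, bound by SP and KLF factors, was in 8 of the 14 windows, with 4 matches in Fkbp5 and 3 in Klf13, and in 35.7% of all windows. Klf13 and Fkbp5 have GC-rich windows (72.0% and 70.7% G and C, against a median of 52.7% over all windows), and that of Hsd11b1 is at 54.7%.

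Without TCF-1, 3 of the 9 genes were lower than in wild type thymocytes by the 2-fold rule and 0 were higher. They were Sgk3, Hsd11b1 and Klf13. Over all genes 2.62% were lower and 1.33% higher by this rule, or 523 and 266 genes, and 405 and 364 genes when each array was centred on its own median. Because the 9 genes were chosen with earlier results of these data known, their share is no measure of an excess over all genes. Of 14 markers of double-positive thymocytes 13 were lower too, and in a bulk suspension fewer cells of a type and less RNA per cell cannot be told apart. The median difference of the 9 was -0.51, against 0 over all genes. With the transgene, 0 of the 9 were beyond 2-fold in either direction, where 0.15% of all genes were higher and 0.0953% lower, and the median difference of the 9 was 0. Both comparisons use the same wild type array.

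**Figure D1:**
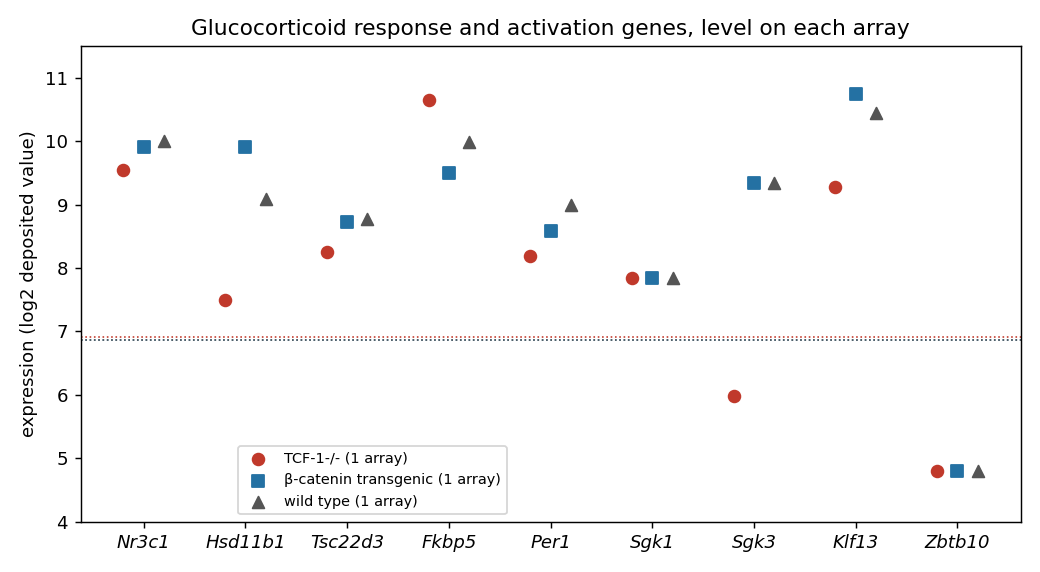
Level of each of the 9 genes (log2 deposited value) on the TCF-1-/-, β-catenin transgenic and wild type arrays, 1 point per array, with the median over all genes of each array dotted. Sgk3 on the TCF-1-/- array (5.98) and Zbtb10 on all arrays (4.79) lie below the dotted lines, and Sgk1 and Zbtb10 have the same value on all 3 arrays.

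The receptor itself was measured on all arrays. Nr3c1, on chromosome 18, had a level of 9.55 on the TCF-1-/- array and 9.90 on the transgenic array, against 10.00 on the wild type array. The TCF-1-/- array was the lowest, by 0.45 from wild type (1.36-fold), and the transgenic array was 0.09 below wild type, both within 2-fold. Of the 7 measured steroid hormone receptor genes, 4 did not reach the median over genes on any array. Nr3c2, the mineralocorticoid receptor, which also binds corticosterone, was among these dim genes, at 5.55, 5.55 and 5.43 on the TCF-1-/-, transgenic and wild type arrays. Vdr, the vitamin D receptor, was the 1 receptor gene beyond 2-fold. It was at 8.82 on the TCF-1-/- array, with the transgenic array at 6.30, against 6.30 in wild type, a difference of 2.52 from wild type. The wild type level is under the median over genes (6.86), where sizes of differences are less certain. For the 4 receptor genes and for later counts of genes under the median, the share of all genes under it on every array was not computed.

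Hsd11b1, which encodes 11β-hydroxysteroid dehydrogenase type 1 in the endoplasmic reticulum, differed in opposite directions in the 2 genotypes. It was at 7.49 on the TCF-1-/- array and 9.91 on the transgenic array, against 9.08 on the wild type array. The TCF-1-/- value was 3.02-fold below wild type (-1.59) and the transgenic value was 1.78-fold above it (0.83), under the 2-fold rule. Ranked over 19938 genes, the first difference was the 174th lowest and the second the 43rd highest. Between the transgenic and TCF-1-/- arrays the difference was 2.42, or 5.36-fold. H6pd, which supplies the enzyme's cofactor NADPH inside the endoplasmic reticulum, was at 8.70 and 9.38 on the TCF-1-/- and transgenic arrays, against 9.31 on the wild type array. That is a difference of -0.61 for TCF-1-/- and 0.07 for transgenic thymocytes. Of 14 measured genes of corticosteroid synthesis and metabolism, Hsd11b1 was the only one beyond 2-fold in either comparison with wild type. The adrenal-type synthesis genes Star, Cyp11a1, Cyp11b1 and Cyp21a1 had identical values on all 3 arrays, and 12 of the 14 genes did not reach the median over genes on any array. Hsd11b2, whose enzyme inactivates the hormone, was one of these, at 6.22, 6.11 and 6.04 on the TCF-1-/-, transgenic and wild type arrays.

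Sgk3 had the largest difference of the 9 genes. It encodes an endosomal kinase related to the hormone-induced kinase SGK1, and lies on chromosome 1 (chr1:9798130-9902570 in the gene table, GRCm38.p6). Its level was 5.98 on the TCF-1-/- array and 9.34 on the transgenic array, against 9.33 on the wild type array. The TCF-1-/- array was 10.2-fold below wild type (-3.35), the 10th lowest difference of 19938 genes, and the transgenic and wild type arrays differed by 0.0041. The TCF-1-/- value lies below the median over genes, in the dim range of the array, where the fold is less certain. Sgk1, the serum- and glucocorticoid-induced kinase, had the same value of 7.84 on all 3 arrays, and so did Sgk2, at 6.46. Of the 3 SGK genes, Sgk3 was thus the 1 beyond 2-fold, within the limit that identical values set.

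The kinase's activators and substrates were also examined. Like the 9 genes, all the gene lists used here were chosen with earlier results of these data known. Their counts are thus no measure of an excess over all genes. Without TCF-1, 2.62% of all genes were lower and 1.33% higher, and with the transgene 0.15% were higher and 0.0953% lower. Of 19 measured genes of the SGK family, its activators and its substrates, Sgk3 and Nedd4l were the 2 lower by the 2-fold rule on the TCF-1-/- array and 0 were higher, with a median difference of -0.22. Nedd4l, a ubiquitin ligase that SGK kinases phosphorylate, was at 8.80 on the TCF-1-/- array and 10.14 on the transgenic array, against 10.14 on the wild type array. In transgenic thymocytes 1 of the 19 was higher, Ndrg3, and 0 were lower. Ndrg3, a relative of the SGK1 substrate NDRG1, was at 9.44 on the TCF-1-/- array and 11.59 on the transgenic array, against 10.34 on the wild type array. Its differences from wild type were -0.90 and 1.25. Ndrg1 differed by -0.42 and 0.96, the same directions, and with centred arrays its second difference was 1.04, beyond 2-fold.

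Klf13 was lower without TCF-1, and slightly above wild type, within 2-fold, with the transgene. It encodes a zinc finger factor that binds GC-rich DNA and was described in human T cells as an activator of the chemokine gene CCL5. Its level was 9.27 on the TCF-1-/- array and 10.75 on the transgenic array, against 10.44 on the wild type array. The TCF-1-/- value was 2.24-fold below wild type (-1.16) and the transgenic value 1.24-fold above it (0.31), and the transgenic minus TCF-1-/- difference was 1.47. Ccl5 itself was at 9.70 on the TCF-1-/- array and 9.05 on the transgenic array, against 9.16 on the wild type array, all within 2-fold. Among 17 KLF genes, 2 were lower by at least 2-fold without TCF-1 and 0 were higher, where 2.62% of all genes were lower and 1.33% higher. The other was Klf7 (-1.10), at 9.25 on the TCF-1-/- and 10.46 on the transgenic array, against 10.35 on the wild type array. With each array centred on its median the difference of Klf7 was -0.96, so its call was lost and Klf13 was the 1 lower KLF gene. With the transgene 0 of the 17 were beyond 2-fold. Klf9, a gene that the hormone induces in many tissues, was identical on all 3 arrays at 6.71.

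Fkbp5 differed in the opposite directions to Hsd11b1 and Klf13. It encodes FKBP51, a chaperone that lowers the receptor's affinity for hormone and is itself induced by the receptor. Its level was 10.65 on the TCF-1-/- array and 9.50 on the transgenic array, against 9.99 on the wild type array. The TCF-1-/- value was 1.58-fold above wild type (0.66), the only difference above 0 among the 9 genes in that comparison, and the transgenic value lay below wild type (-0.49). Neither reached 2-fold, but the transgenic array was 1.15 below the TCF-1-/- array, or 2.22-fold. In that comparison 3 of the 9 genes were higher by at least 2-fold, Sgk3, Hsd11b1 and Klf13, and 1 was lower, Fkbp5, where 2.45% of all genes were higher and 1.57% lower.

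The receptor's chaperones lay slightly above wild type without TCF-1. Of 16 measured chaperone genes 15 had a difference above 0 on the TCF-1-/- array and 0 below, with a median of 0.25 and none beyond 2-fold. Fkbp5 had the largest of these differences. Hsp90aa1, one of the HSP90 genes, differed by 0.11 and Fkbp4, whose product competes with FKBP51 in the receptor complex, by 0.37. On the transgenic array 6 chaperone genes were above wild type and 5 below, with a median of 0. Co-regulators that the DNA-bound receptor recruits lay the other way. Of 13 measured, 11 were below wild type on the TCF-1-/- array and 2 above, with a median of -0.46 and none beyond 2-fold. The lowest were Ncoa1, a steroid receptor coactivator, and Ep300, a histone acetyltransferase, each at -0.98. With each array centred on its own median, 0.13 would be added to every difference of this comparison. Over all genes the median difference was 0, and 36.4% of genes had the same value on the TCF-1-/- and wild type arrays. The share of similarly bright genes on each side of 0 was not computed, so neither count of directions is read as a trait of its list. The transgenic array had a median of -0.06 over the 13. In the FKBP family, 0 of 13 measured genes were beyond 2-fold in either comparison with wild type, and Fkbp5 had the largest difference in each.

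**Figure D2:**
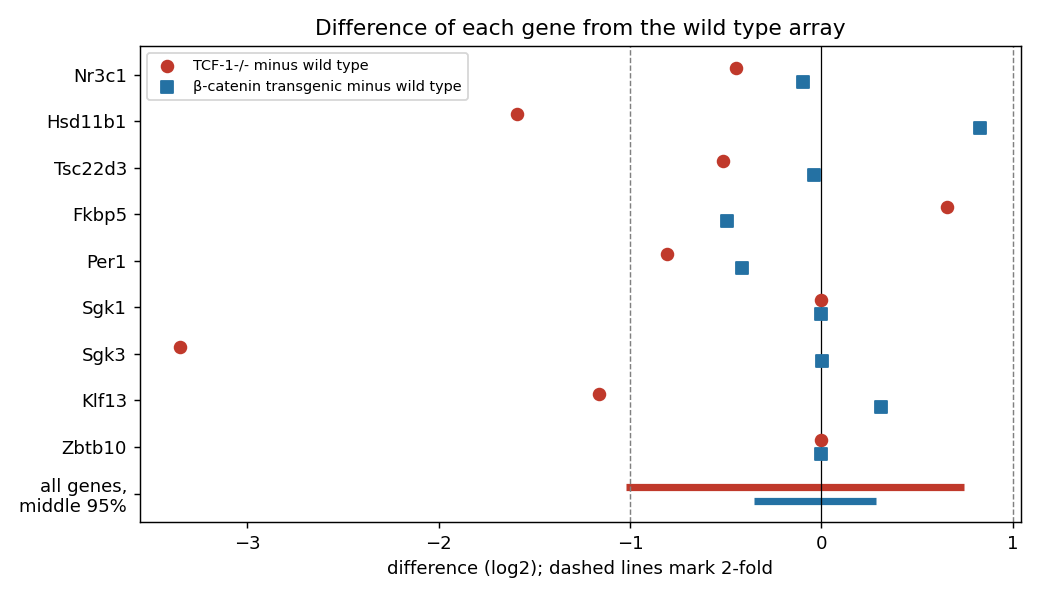
Difference of each of the 9 genes from the wild type array (log2), with the TCF-1-/- array above the transgenic array in each row, 1 value per point, and below them the range that holds the middle 95% of all 19938 genes (-1.02 to 0.75 and -0.36 to 0.29). Sgk3, Hsd11b1 and Klf13 lie beyond the 2-fold line for the TCF-1-/- array, and Hsd11b1 lies at 0.83 for the transgenic array.

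Tsc22d3 and Per1 differed by less than 2-fold. Tsc22d3 encodes GILZ, the leucine zipper protein through which the hormone restrains inflammatory signalling. It had a level of 8.26 on the TCF-1-/- array and 8.73 on the transgenic array, against 8.77 on the wild type array. The differences were -0.51 and -0.04. The gene lies on the X chromosome, and its transgenic and wild type values were close on arrays that differed in Xist. The other genes of the TSC22 domain family were also below wild type without TCF-1. Tsc22d1 was at 6.90 on the TCF-1-/- array and 9.05 on the transgenic array, against 9.07 on the wild type array, a difference of -2.17 without TCF-1. Tsc22d4 differed by -0.67 and Tsc22d2 by -0.43 in the same comparison, so 1 of the 4 was beyond 2-fold.

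Per1, a core repressor of the circadian clock that the hormone also induces, was below wild type in both genotypes, within 2-fold. Its level was 8.18 on the TCF-1-/- array and 8.58 on the transgenic array, against 8.99 on the wild type array. The differences were -0.81 and -0.42, with the TCF-1-/- array lowest. Of 19 measured clock genes, the TCF-1-/- array had 2 lower by the 2-fold rule and 1 higher, with a median of 0. Over all genes 2.62% were lower and 1.33% higher. Arntl, which encodes the activator BMAL1, was at 7.88 on the TCF-1-/- array and 9.75 on the transgenic array, against 9.69 on the wild type array. Cry1, a partner of the PER proteins, differed by -1.17, and Nfil3, a repressor of clock output genes, by 1.01. The call of Nfil3 was lost when a trend with level was removed by loess (0.98), which left 0 clock genes higher. On the transgenic array 0 of the 19 were beyond 2-fold, and Per1 had the largest difference in size. The hour at which the mice were killed is not given in the sources used here, and its part in these values was not tested.

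Zbtb10, a BTB zinc finger gene, had the same value of 4.79 on all 3 arrays. This lies well below the median over genes, so no level or difference can be read from it. Zbtb10 and Sgk1 are the 2 of the 9 genes with identical values throughout.

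The wider set of genes that the hormone induces in lymphocytes or other tissues included more lower than higher genes without TCF-1. This list was also chosen with earlier results of these data known, so its counts are no measure of an excess over all genes. Over all genes 2.62% were lower and the median was 0. Of the 28 genes of the list, all measured, the TCF-1-/- array had 6 lower by the 2-fold rule and 0 higher, with a median of -0.14. Besides Klf13 they were Errfi1, a feedback inhibitor of the EGF receptor (-2.30), Zfp36, which destabilises cytokine mRNAs (-1.83), Sesn1, a stress-induced regulator of mTORC1 (-1.25), Rgs2, a regulator of G protein signalling (-1.21), and Nfkbia, the inhibitor of NF-κB (-1.01). The call of Nfkbia was lost with centred arrays (-0.88) and with loess (-0.96). Errfi1 was at 7.32 on the TCF-1-/- array and 9.93 on the transgenic array, against 9.62 on the wild type array. With the transgene 0 of the 28 were beyond 2-fold, with a median of 0. Other genes of this list stayed within 2-fold in both directions. Ddit4 had the same value on all arrays (9.94). Txnip differed by -0.75 without TCF-1 and Il7r, the IL-7 receptor chain, by 0.63. Bcl2l11, the pro-apoptotic BIM gene that the hormone induces in dying thymocytes, differed by -0.28 without TCF-1 and by 0.03 with the transgene.

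The list of cytokine and activation genes that the hormone represses held dim and bright genes. Of 16 measured, 11 lay under the median over genes on every array, and 10 had the same value in TCF-1-/- and wild type thymocytes. Over all genes 36.4% had the same value on these 2 arrays, and the share under the median on every array was not computed. Neither count is thus read as a trait of the list. Il2ra, Cd69, Ccl5 and Icam1 were above the median over genes on all 3 arrays. Cd69, an early activation marker, was lower without TCF-1 by 2.24, and Il2ra, the inducible chain of the interleukin receptor for IL-2, was higher by 2.06. Both are also in stage marker lists used below, Il2ra in that of the early DN3 stage and Cd69 in that of later, single-positive stages. The part of the stage makeup in their values was not tested. The levels of Il2ra were 12.50 on the TCF-1-/- array and 9.88 on the transgenic array, against 10.44 on the wild type array. With the transgene 0 of the 16 were beyond 2-fold, and Il2ra had the largest difference in size (-0.56).

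**Figure D3:**
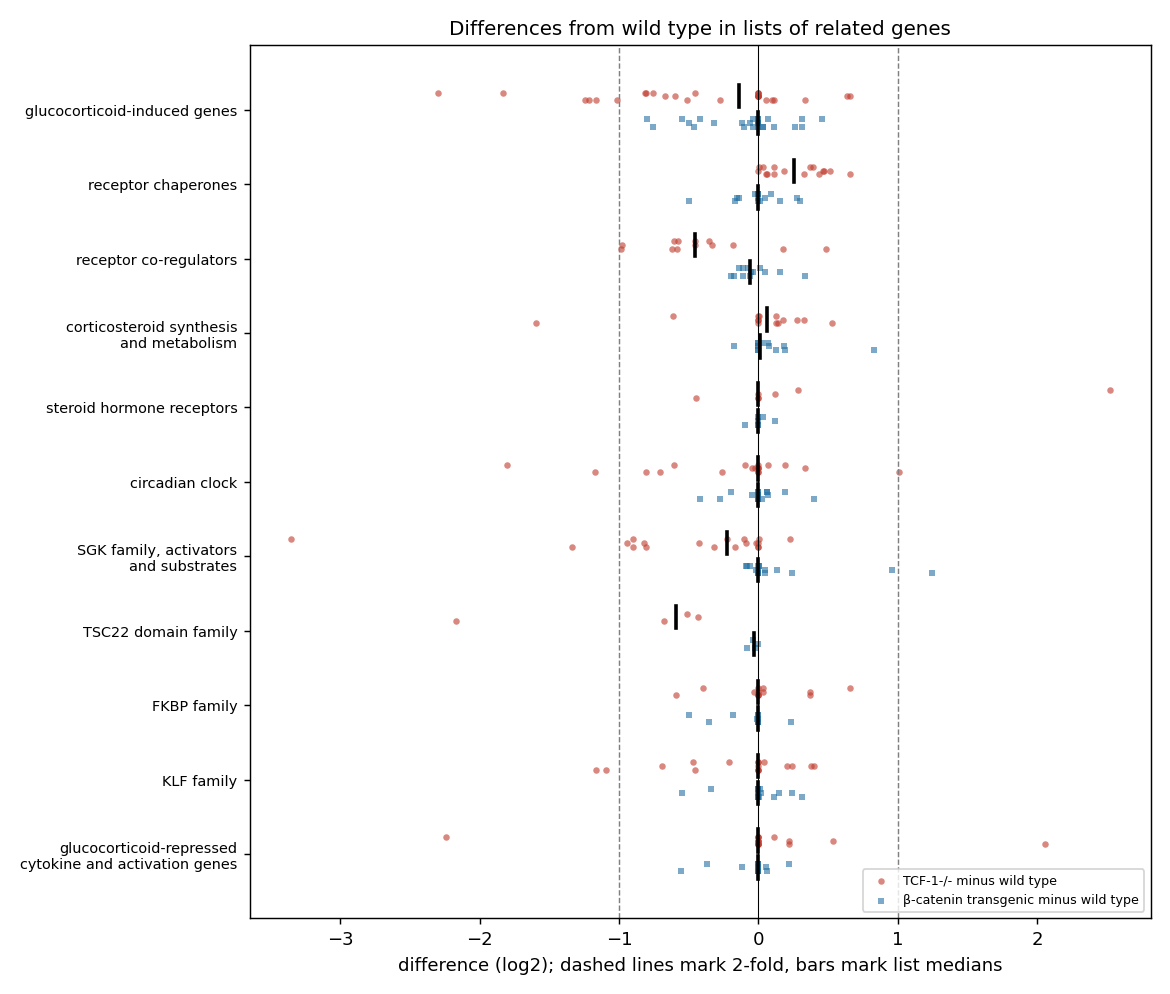
Differences from the wild type array (log2) of the genes in 11 lists related to the hormone, 1 point per gene, with the TCF-1-/- array above the transgenic array in each row and black bars at the list medians. The chaperones lie at or above 0 and most co-regulators below 0 for the TCF-1-/- array, while the transgenic medians lie close to 0.

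Markers of thymocyte stages and early response genes also differed on the TCF-1-/- array, in directions that depended on the list. Of 14 double-positive genes, all but Dntt (-0.43) were lower by the 2-fold rule, 13 in all, and 0 were higher. The call of Aqp11 (-1.05) was lost with centred arrays (-0.92) and with loess (-0.98). Summed levels here add log2 values, so 1 gene with a large difference can move them. For the 14 genes the summed level was 139.5 on the TCF-1-/- array and 165.8 on the transgenic array, against 164.4 on the wild type array. Of 10 genes in the list for the earlier DN3 stage 7 were higher and 0 lower, with summed levels of 97.1, 80.6 and 82.0 in the same order, Cd44 included. On the transgenic array 6 of the 10 were below wild type and 2 above, with a median of -0.34. Cd44 (1.68) was the 1 gene of that list higher by the 2-fold rule on the transgenic array. It is low at the DN3 stage itself, so this value is not read as a DN3 marker. The part of the stage makeup in the lower levels of Sgk3, Hsd11b1 and Klf13 was not tested. On the transgenic array 0 of the 14 double-positive genes were beyond 2-fold, with a median of 0.09. Of 20 immediate early genes, which also respond to cell isolation, 9 were lower and 0 higher on the TCF-1-/- array, and 2, Fos and Fosb, were lower on the transgenic array. Their summed level was 161.5 on the TCF-1-/- array and 170.9 on the transgenic array, against 178.5 on the wild type array. Zfp36, Nfkbia and Dusp1 are in both this list and the hormone-induced one. The part of cell isolation in the values of Per1, Zfp36 and Nfkbia was not tested.

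Markers of other cells differed less evenly. Of 10 thymic epithelial genes, a cell type reported to make corticosteroids, 8 did not reach the median over genes on any array, and the summed level was 66.1 on the TCF-1-/- array and 66.8 on the transgenic array, against 66.7 on the wild type array. In TCF-1-/- thymocytes Cldn4 (-1.44) was the 1 lower gene among them, and at 9.38 it was the brightest of them on the wild type array. Of 11 myeloid genes the TCF-1-/- array had 3 higher, Ly86 (4.01), Cybb (1.55) and Lyz2 (1.12), and 0 lower, with summed levels of 84.8, 79.1 and 76.5 in that order of arrays. Of 9 B cell genes 3 were higher, Cd79a (2.53), Fcmr (1.86) and Ms4a1 (1.64), and 1 was lower, Ly6d (-1.50), with summed levels of 75.3, 69.4 and 67.6. Ly6d was likewise the brightest of its list on the wild type array (12.26). Which cells carry the RNA of Cldn4 and Ly6d was not tested. With centred arrays Cd22 (1.09) and Ebf1 (1.08) were higher as well. Of 9 fibroblast and endothelial genes 1 was higher, Pdgfrb (4.47), with summed levels of 67.0, 61.9 and 62.2. The median difference of this list was 0.04 on the TCF-1-/- array. A log2 array value has no true 0, so no marker can be called absent. The part of these cells in the levels of the 9 genes was not tested. Of 10 single-positive genes, which mark later stages, 3 were lower, Cd69 (-2.24), Cd52 (-1.66) and Cd40lg (-1.62), and 0 higher on the TCF-1-/- array, with summed levels of 86.7 and 89.6 on the TCF-1-/- and transgenic arrays, against 92.8 on the wild type array.

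**Figure D4:**
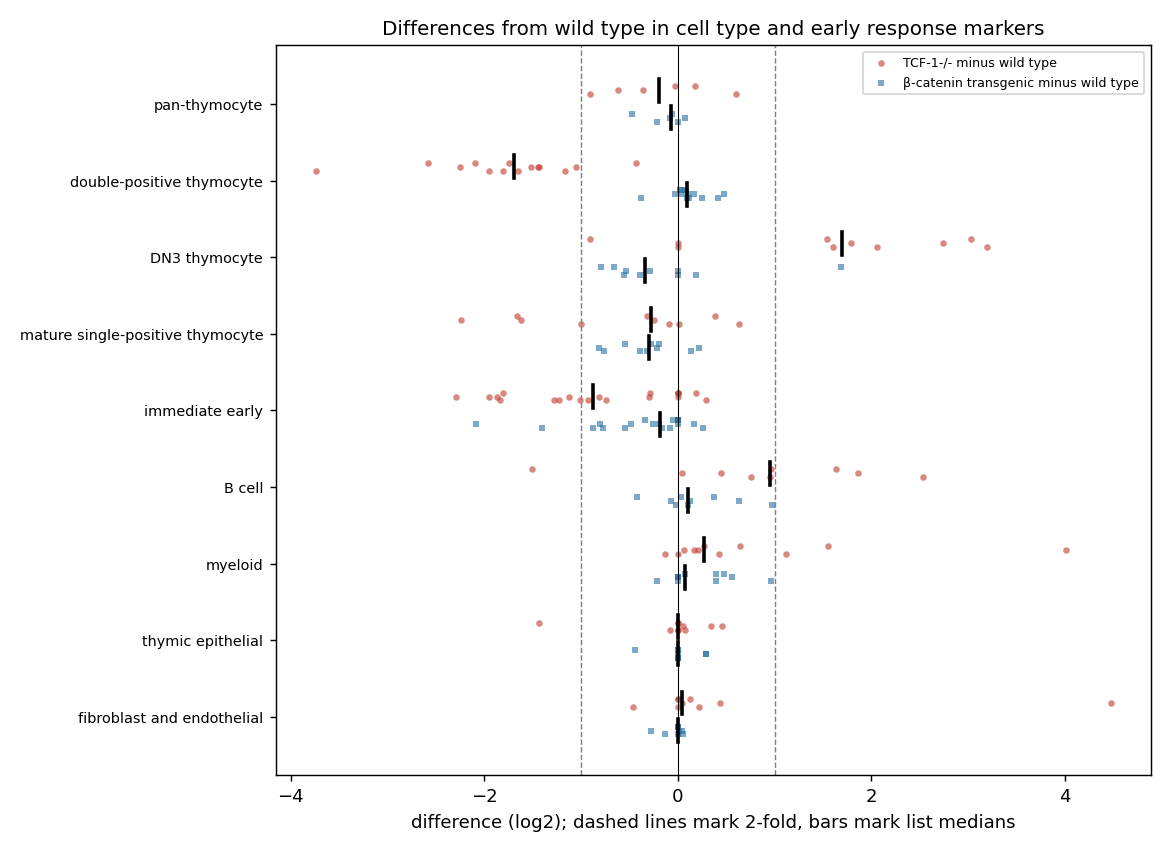
Differences from the wild type array (log2) of cell type and early response markers, 1 point per gene, with the TCF-1-/- array above the transgenic array in each row and black bars at the list medians. On the TCF-1-/- array 13 of 14 double-positive genes lie beyond 2-fold below wild type and 7 of 10 genes in the DN3 list, which includes Cd44, beyond 2-fold above it.

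Genes with the most similar pattern were sought for the 3 members beyond 2-fold, as the smallest Euclidean distance between the pairs of differences from wild type, over 3 arrays. For Hsd11b1 they were Nmnat1 (differences of -1.47 for TCF-1-/- and 0.72 for transgenic), Ankrd50 (-1.62 and 0.66) and Anxa5 (-1.83 and 0.86). For Sgk3 they were Wdr78 (-3.19 and 0.04), Slc7a11 (-3.56 and -0.0098) and Dhrs3 (-3.19 and -0.16). For Klf13 they were Slco3a1 (-1.19 and 0.34), Tns1 (-1.23 and 0.27) and Dgka (-1.13 and 0.24). With 3 arrays many genes can have alike values, so this likeness is a description only.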

How the data were processed

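Total RNA of thymocytes was hybridised to Affymetrix whole-transcript arrays, per the labels' protocols, 1 array per genotype. The authors' deposited values, from 1.73 to 14.8, were read as log2, because the submitters' processing notes name RMA and Partek. The log base, the versions and the build are not stated there or in a header. Probe sets were named from the platform annotation, and of 35556 probe sets 21789 had 1 symbol, 1621 several and 12146 none. For a gene with several single-symbol probe sets the one with the highest mean was used, giving 19938 genes. The deposited normalisation was kept.

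Differences are the log2 value of one array minus that of another. With 1 array per genotype there is no test, and 2-fold is a rule of size. The number of arrays limits the precision. The members and lists were chosen with earlier results of these data known. Named genes were all members, per list the genes beyond 2-fold or else the one with the largest difference, and for each member beyond 2-fold the 3 most alike genes. Other genes named from the lists were chosen after their values were seen. Calculations were tested on simulated data. Alternatives were 1.5-fold and 3-fold rules, centring of arrays, loess removal of a trend with level (span 0.3), other probe set rules and a filter on dim genes. Python 3.11.15, NumPy 2.4.6, pandas 2.3.3, statsmodels 0.14.6 and matplotlib 3.10.9 were used.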

Additional observations from a re-analysis of the deposited data

How the results depend on the processing

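All 27 differences of the 9 genes (3 comparisons) kept their side of the 2-fold rule when arrays were centred (largest shift 0.13), when an intensity trend was removed (largest shift 0.053) and under both other probe set rules (shift 0). The counts of members moved with the rule of size. Members lower without TCF-1 were 4 at 1.5-fold, where Per1 joined, 3 at 2-fold and 2 at 3-fold, where Klf13 dropped out. At 1.5-fold, 1 member was higher without TCF-1 (Fkbp5) and 1 with the transgene (Hsd11b1), against 0 at 2-fold. At 3-fold, 0 members were lower on the transgenic than on the TCF-1-deficient array, against 1 at 2-fold, and 2 were higher, against 3 at 2-fold. Over all genes, 1.5-fold gave 806 higher and 1376 lower without TCF-1, 97 and 133 with the transgene, and 1255 and 878 for transgenic minus TCF-1-deficient. At 3-fold these were 107 and 175, 11 and 7, and 177 and 118. Centring moved the median over genes by 0.13 and the split of calls without TCF-1 to 364 higher and 405 lower, against 266 and 523 as deposited. A count over a list was called moved when it changed by more than 1.5-fold, or to or from 0. Of 66 counts over the 11 related lists, 26 moved at 1.5-fold, 13 at 3-fold, 3 with centring, 2 with loess (a lost or gained call of Klf7, Ndrg1, Il7r or Nfil3) and 0 under the other settings. Smaller changes are not in these numbers, such as the calls of Nfkbia and Pdpk1 lost with centring and with loess. No paired analysis was possible because each genotype has 1 array. Dim genes such as Zbtb10, and Sgk3 on the TCF-1-deficient array, limit the sizes that can be read.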
